A study of Sus scrofa with 12 samples.

Results

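Heat shock proteins and their co-chaperones were examined in the brain of newborn pigs after deep hypothermic circulatory arrest (DHCA), in which the body is cooled and blood flow is stopped. The genes were taken by name: every gene whose name in the authors' table begins with HSPA, HSPB, HSPD, HSPE, HSPH, HSP90, HSP70, DNAJ or BAG1 to BAG6. This gave 66 of the 25880 genes in the count table, and 60 of them had enough counts to be tested among 14004 genes. DHCA piglets (n = 6) had 4% isoflurane, cannulation through the sternum, bypass with cooling to 18 °C, 30 min of arrest, rewarming to 37 °C on bypass and 6 h of recovery. Sham piglets (n = 6) had 4% isoflurane only. Surgery, bypass, cooling and arrest therefore cannot be told apart in this comparison. RNA was taken from tissue labelled striatum, a deep forebrain region rich in spiny projection neurons, and each library came from 1 animal as far as the design text says.

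Heat shock proteins are chaperones: they hold, fold or disassemble other proteins, and many are made in larger amounts after heat, oxygen lack or other protein damage, under the heat shock factor HSF1. HSP70 proteins (HSPA genes) do the folding with ATP, DNAJ proteins (the HSP40 family) bring them their clients and stimulate their ATPase, and BAG and HSP110 proteins make them release ADP and client. Small heat shock proteins (HSPB genes) keep unfolded proteins soluble, and HSPD1 with HSPE1 forms the folding chamber of mitochondria. In brain, HSPA8 and several DNAJ proteins also serve the synapse, where they recycle clathrin coats and vesicle proteins.

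Library totals ran from 1377809 counts in Sham 5 and 2515816 in Sham 1 to 12933536 in Sham 6, and levels are given as counts scaled to the size of the library (CPM), of which 1 unit stood for 1.502 to 13.7 counts. The chaperone genes took 0.464% to 0.609% of the counts of a library. Sham 1, Sham 4 and Sham 5 stood apart. The share of counts from the mitochondrial chromosome was 4.01% in Sham 1 and 7.30% in Sham 5, against 10.6% to 26.3% in the other 10 libraries. The library labelled Sham 4 went against its tissue label, with a summed level of 9 spiny neuron markers of 97.9 CPM, against 2013 to 5778 CPM in the other 11 libraries. Its 4 cortical neuron markers summed to 994 CPM, against 5.22 to 18.6 CPM elsewhere. In DHCA 3 the 5 oligodendrocyte markers found summed to 64145 CPM, against 4467 to 32745 CPM in the others. In bulk tissue, fewer cells of a type and less RNA per cell cannot be told apart.

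No chaperone gene passed the edgeR quasi-likelihood test at an adjusted p of 0.05, where 0.186% of all tested genes (26 genes) did. At an unadjusted p of 0.05, DNAJB1 and DNAJC21 were higher in DHCA and HSPA12B was lower. The same threshold was passed by 3.43% of all tested genes upward and 4.47% downward, so 2 and 1 of 60 were near or below the background. The DESeq2 Wald test called 2 chaperone genes, DNAJB1 and HSPA12B, where it called 1.1% of genes, and limma-voom, run with quality weights for the samples, called 0, where it called 1.48%. EdgeR also called 0 with a replicate block, where it called 0.0571% of genes, without Sham 1 and Sham 5 (0.0845%) and without Sham 1, Sham 4 and Sham 5 (0.00696%). Of the 60 log2 fold changes, 39 were positive and 21 negative, with a median of 0.08 against -0.003 over all tested genes. Over all tested genes 6935 were positive and 7069 negative. Sign counts, here and by subfamily below, were not tested. The median size of the 60 log2 fold changes was 0.213, against 0.206 over all tested genes. The 95% interval excluded a 2-fold change in both directions for 49 of the 60 genes and a 1.5-fold change for 20. These interval counts were not made over all tested genes, so they cannot be read as particular to the chaperone genes.

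**Figure D1:**
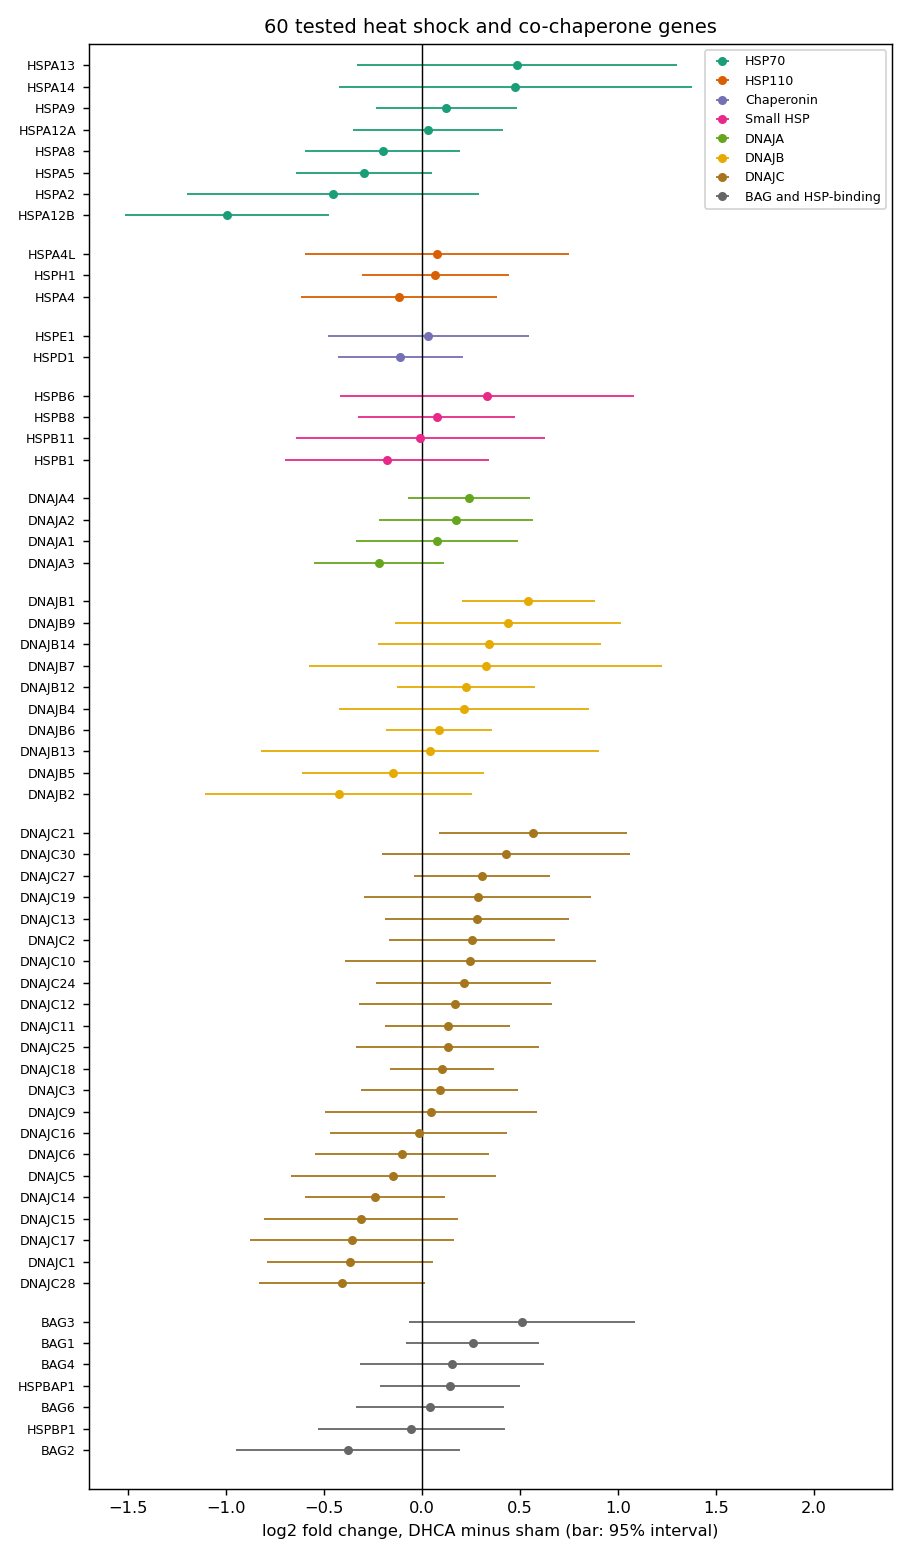
Log2 fold change (DHCA minus sham, horizontal axis) of each of the 60 tested genes with its 95% interval, grouped and coloured by protein family. The intervals of DNAJB1, DNAJC21 and HSPA12B do not reach 0, and HSPA12B lies lowest at -0.995.

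DNAJB1, the HSP40 protein that stimulates HSP70 under stress and works with HSP110 to dissolve aggregates, was measured at ENSSSCG00000013784 (chromosome 2, 64761206 to 64765510, Sscrofa11.1). Its lowest, median and highest levels were 97.8, 115.2 and 153 CPM in DHCA libraries, against 65.4, 81.7 and 94.4 CPM in sham libraries. The lowest DHCA library lay above the highest sham library. Such a separation, in either direction, was found in 0.993% of all tested genes and in 2 of the 60 chaperone genes. The means were 118.5 ± 20.9 CPM in DHCA and 81.2 ± 11.7 CPM in sham libraries (SD, n = 6 each), a 1.46-fold difference, with a log2 fold change of 0.54, SE 0.16. In edgeR the unadjusted p was 0.0041 and the adjusted p 0.282. With the DESeq2 Wald test the log2 fold change was 0.54 and the adjusted p 0.0466. The authors' deposited table gives DNAJB1 a log2 fold change of 0.55 (SE 0.146) with an adjusted p of 0.021. The value lay between 0.46 and 0.59 when each library was left out, and was 0.48 without Sham 1 and Sham 5 and 0.37 without Sham 1, Sham 4 and Sham 5 (edgeR adjusted p = 0.841). No other gene of the table overlaps DNAJB1.

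HSPA12B, a distant HSP70 relative known from endothelial cells of mice and humans, was measured at ENSSSCG00000007147 (chromosome 17, 31953137 to 31980394). Its lowest, median and highest levels were 7.20, 11.9 and 12.2 CPM in DHCA libraries, against 14.3, 20.5 and 35.3 CPM in sham libraries. All 6 DHCA libraries lay below all 6 sham libraries, and 5 of the DHCA libraries lay within 10.9 to 12.2 CPM. The means were 11.01 ± 1.92 CPM in DHCA and 22.4 ± 8.39 CPM in sham libraries (SD, n = 6 each), with a log2 fold change of -0.995, SE 0.24. The edgeR unadjusted p was 0.00106 and the adjusted p 0.159. With the DESeq2 Wald test the log2 fold change was -0.98 and the adjusted p 0.0169, and the authors' deposited table gives -0.97 (SE 0.245) with an adjusted p of 0.0113.

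The highest HSPA12B levels were those of Sham 1 (35.3 CPM) and Sham 5 (29.3 CPM), and without these libraries the log2 fold change was -0.66 (edgeR unadjusted p = 0.00466, adjusted p = 0.296). Without Sham 1, Sham 4 and Sham 5 it was -0.53 (unadjusted p = 0.0191, adjusted p = 0.669). The same pair of sham libraries was also highest in 6 endothelial markers summed, with 457.5 and 389.5 CPM. The lowest, median and highest of that sum were 249, 285 and 328 CPM in DHCA libraries, against 223, 298 and 457.5 CPM in sham libraries, so the groups overlapped. Of the 6 markers, 1 (CDH5) was higher in DHCA and 3 (TEK, TIE1 and VWF) were lower at an edgeR unadjusted p of 0.05, and none passed after adjustment. Of all tested genes, 3.43% were higher and 4.47% lower at that unadjusted p. Across 12 libraries HSPA12B and the marker sum had r = 0.61 (permutation p = 0.036, adjusted p = 0.175 over 600 relations) and rho = 0.31 (p = 0.321, adjusted 0.687). Without Sham 1 and Sham 5, the farthest on the marker sum, r was -0.14, so the relation rested on those libraries. The part of the endothelial markers in the HSPA12B difference was not tested. HSPA12B overlaps ADISSP on the opposite strand over 3615 bases, and the authors' counting command sets no strand option, so reads of the shared bases cannot be assigned to a strand.

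**Figure D2:**
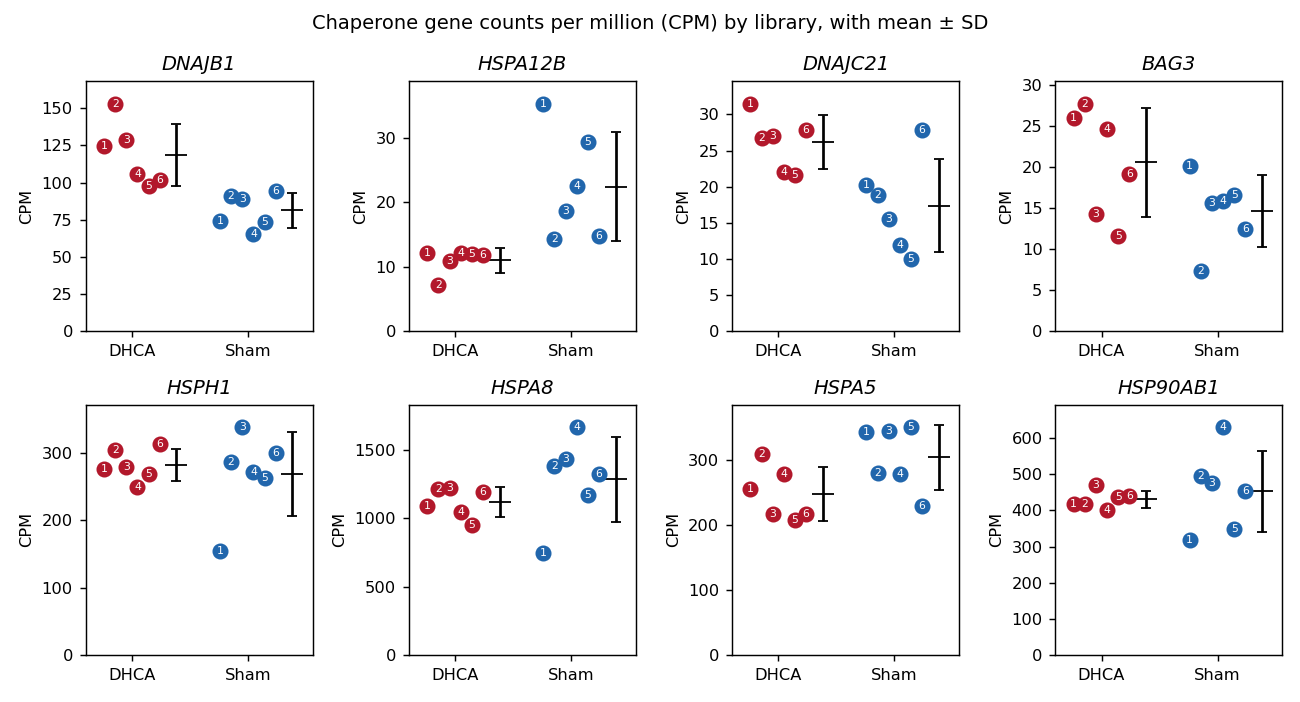
CPM of 8 genes in each library (red DHCA, blue sham; the digit is the replicate number), with mean ± SD beside each group. The groups do not overlap for DNAJB1 and HSPA12B, and Sham 1 lies far below the rest for HSPH1 (154 CPM) and HSPA8 (746 CPM).

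None of the other classical heat-inducible genes passed the edgeR test either. BAG3, which links HSP70 and HSPB8 to autophagy and is a common HSF1 target (ENSSSCG00000010686, chromosome 14, 129466905 to 129533996), ran through 11.6, 21.9 and 27.7 CPM (lowest, median, highest) in DHCA libraries and 7.32, 15.8 and 20.2 CPM in sham libraries. DHCA 1, DHCA 2 and DHCA 4 lay above every sham library, while DHCA 3, DHCA 5 and DHCA 6 lay within the sham range. This gave a log2 fold change of 0.51, SE 0.27, with an edgeR unadjusted p of 0.0775 and an adjusted p of 0.708. Without Sham 1, Sham 4 and Sham 5 it was 0.81 (unadjusted p = 0.0265, adjusted p = 0.734), and without Sham 2, the lowest library, 0.36.

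HSPH1, the inducible HSP110 protein that recharges HSP70, ran through 249.6, 278 and 314 CPM in DHCA libraries and 154, 279 and 338 CPM in sham libraries. The medians were nearly equal and the DHCA values lay inside the sham range. Its log2 fold change was 0.07, SE 0.18, and -0.05 without Sham 1, and its 95% interval of -0.31 to 0.44 leaves out a rise of 1.5-fold. The other HSP110 genes had log2 fold changes of -0.12, SE 0.23 (HSPA4), and 0.08, SE 0.31 (HSPA4L).

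The inducible cytosolic HSP70 genes were poorly covered. No gene of the table carries the name HSPA1A, HSPA1B or HSPA6. HSPA1L, a testis-rich copy beside them, had 0 to 11 counts a library and was not tested. A gene that only the reference table of pig names calls HSP70.2 (ENSSSCG00000029160, chromosome 7, 23915072 to 23929754) ran through 1.44, 2.30 and 5.57 CPM in DHCA libraries and 0, 2.13 and 2.97 CPM in sham libraries. The value of 0 is that of Sham 5, where 0 counts allow up to 2.00 CPM. Only DHCA 2 and DHCA 3, with 5.57 and 4.61 CPM, lay above every sham library. The log2 fold change was 0.60, SE 0.46 (edgeR unadjusted p = 0.215). Near-identical HSP70 copies share reads, and the authors' command sets no option to count reads that map to several places, so these levels are uncertain.

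HSP90 genes carry no name in the authors' table and so fall outside the 66. By the reference table of names, HSP90AB1, the constitutive cytosolic HSP90, averaged 430.5 ± 23.9 CPM in DHCA and 454 ± 112 CPM in sham libraries, with a log2 fold change of -0.08, SE 0.17. HSP90B1, the HSP90 of the endoplasmic reticulum (ER), averaged 174 ± 15.7 CPM in DHCA and 188 ± 38.7 CPM in sham libraries, a log2 fold change of -0.11, SE 0.16. The inducible HSP90AA1 and the co-chaperone BAG5 are listed at 0 in all 12 libraries. They lie on an unplaced scaffold of which 0 of 135 genes had a count, and 0 of the 1522 genes on all unplaced scaffolds had one, so their zeros give no level. Of 10 genes with such family names only in the reference table, 7 were tested, none passed the edgeR test and none was under an unadjusted p of 0.05.

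Among the constitutive HSP70 proteins, HSPA8 (ENSSSCG00000015140, chromosome 9, 49978078 to 49988038), which also uncoats clathrin vesicles, was the most abundant chaperone gene per length. It averaged 338 ± 42.0 TPM (the count per base, scaled to the same sum in each library) in DHCA and 415 ± 97.0 TPM in sham libraries. Its lowest, median and highest levels were 955, 1141 and 1220 CPM in DHCA libraries, against 746, 1353 and 1665 CPM in sham libraries. The lowest and the highest of the 12 values were both sham, Sham 1 and Sham 4. The log2 fold change was -0.20, SE 0.18 (edgeR unadjusted p = 0.296, adjusted p = 0.822). It was -0.37 without Sham 1 and Sham 5 (unadjusted p = 0.0158, adjusted p = 0.421) and -0.12 without Sham 4.

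HSPA5, the ER chaperone BiP and a usual readout of ER stress (ENSSSCG00000005601, chromosome 1, 265930042 to 265947997), ran through 208, 236 and 309 CPM in DHCA libraries and 228, 311 and 349.5 CPM in sham libraries. Sham 1, Sham 3 and Sham 5 lay above every DHCA library. Its log2 fold change was -0.30, SE 0.16 (edgeR unadjusted p = 0.09, adjusted p = 0.735), and its 95% interval of -0.64 to 0.05 leaves out a rise of 1.5-fold. The mitochondrial HSP70 HSPA9 had a log2 fold change of 0.12, SE 0.17, with 139 ± 7.90 CPM in DHCA and 127 ± 27.9 CPM in sham libraries. HSPA9 was 72.9 CPM in Sham 1 and 123 to 147 CPM in the other sham libraries. HSPA12A, the neuronal relative of HSPA12B, had 0.03, SE 0.18. HSPA13, an HSP70 of the ER, had 0.48, SE 0.38, with 112 ± 32.4 CPM in DHCA and 79.4 ± 41.8 CPM in sham libraries. Sham 1 had 14.3 CPM, the lowest of the 12, and the log2 value was 0.27 without Sham 1 and 0.12 without Sham 1 and Sham 5. HSPA14, which sits at the ribosome with DNAJC2, had 0.48, SE 0.42, with 1 count in Sham 1, and 0.26 without that library. A gene on the same strand overlaps HSPA14 over 9195 bases, so its counts are uncertain. Over the 8 tested HSP70 genes 4 fold changes were positive and 4 negative, with a median of -0.09.

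HSPA2, an HSP70 best known from testis (ENSSSCG00000002274, chromosome 7, 88607555 to 88609464), covered a 4.31-fold range over the 12 libraries. It ran through 21.6, 33.7 and 93.1 CPM in DHCA libraries and 28.3, 55.6 and 83.4 CPM in sham libraries. DHCA 3 had the highest of the 12 values and the other 5 DHCA libraries lay between 21.6 and 41.9 CPM. The log2 fold change was -0.45, SE 0.35 (edgeR unadjusted p = 0.213). It was -0.87 without DHCA 3 (unadjusted p = 0.00716, adjusted p = 0.381) and -0.15 without Sham 1 and Sham 5.

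HSPA2 was correlated with the summed oligodendrocyte markers by r, while rho did not pass an adjusted p of 0.05. How many of all tested genes have such a relation was not counted, so it cannot be read as particular to HSPA2. On log2 (CPM + 1) values r was 0.85 over 12 libraries (permutation p = 0.00052, adjusted p = 0.024 over 600 relations) and rho was 0.82 (p = 0.00185, adjusted p = 0.0582). Without DHCA 3 and DHCA 5, the libraries farthest from the median of the markers, r was 0.71. Within the 6 DHCA libraries r was 0.91 (exact permutation p = 0.0139) and rho 0.71 (p = 0.136), and within the 6 sham libraries r was 0.86 (exact permutation p = 0.0333) and rho 0.71 (p = 0.136). The lowest, median and highest marker sums were 4467, 12653 and 64145 CPM in DHCA libraries, against 9315, 19889 and 32745 CPM in sham libraries. None of the 5 markers passed the edgeR test or an unadjusted p of 0.05 between groups. The part of the oligodendrocyte markers in the HSPA2 difference was not tested.

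**Figure D3:**
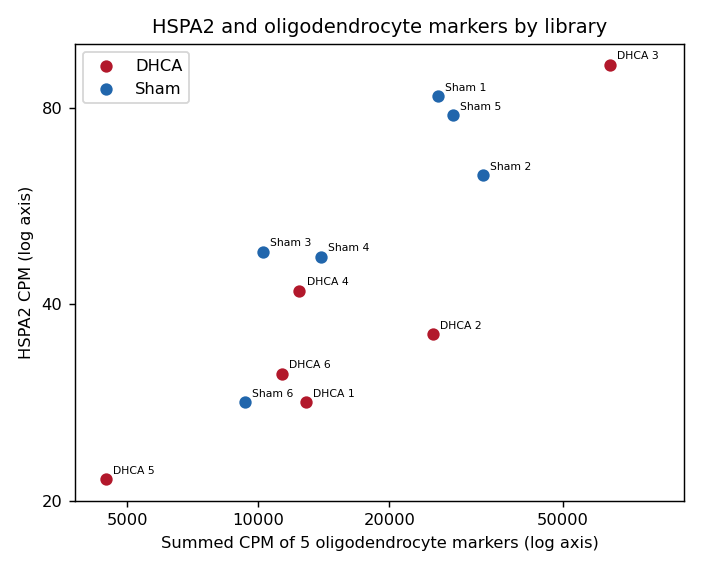
HSPA2 CPM (vertical, log axis) against the summed CPM of 5 oligodendrocyte markers (horizontal, log axis) in the 12 libraries, red for DHCA and blue for sham. HSPA2 is highest in DHCA 3, where the marker sum is 64145 CPM, and lowest in DHCA 5, where it is 4467 CPM.

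No small heat shock protein gene passed the test. HSPB1 (HSP27), a stress-induced holdase, averaged 13.4 ± 3.78 CPM in DHCA and 15.1 ± 4.87 CPM in sham libraries, with a log2 fold change of -0.18, SE 0.24. HSPB8, the partner of BAG3, averaged 74.8 ± 14.7 CPM in DHCA and 71.0 ± 15.7 CPM in sham libraries, with 0.08, SE 0.19. HSPB6, a muscle protein, averaged 2.06 ± 0.483 CPM in DHCA and 1.80 ± 0.971 CPM in sham libraries, with 0.33, SE 0.35. Its lowest and highest values of the 12 were both sham, 0.539 CPM in Sham 3 and 3.49 CPM in Sham 1. HSPB11 is a cilium transport protein in spite of its name and had -0.01, SE 0.30, a value that ran from -0.17 to 0.19 when each library was left out. The directions of HSPB1 and HSPB8 depended on single libraries: without Sham 3, HSPB1 was 0.004, and without Sham 4, HSPB8 was -0.04. HSPB3 and HSPB7, both muscle genes, were too low to be tested.

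Neither gene of the mitochondrial chaperonin passed the test. HSPD1 (HSP60) averaged 109.9 ± 7.88 CPM in DHCA and 118 ± 21.1 CPM in sham libraries, with a log2 fold change of -0.11, SE 0.15. Its co-chaperonin HSPE1 averaged 31.5 ± 5.65 CPM in DHCA and 30.5 ± 10.2 CPM in sham libraries, with 0.03, SE 0.24, and was -0.13 without Sham 1. Both intervals leave out a 2-fold change. HSPD1 overlaps SF3B1 on the same strand over 16557 bases in the annotation used, and its counts are uncertain for that reason. Over the 8 genes taken as mitochondrial (HSPA9, HSPD1, HSPE1, DNAJA3, DNAJC11, DNAJC15, DNAJC19 and DNAJC30) the median log2 fold change was 0.08, with 5 positive and 3 negative.

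The DNAJ co-chaperones fall into 3 classes by structure. Of the 4 DNAJA genes, which resemble bacterial DnaJ most, DNAJA1 averaged 282 ± 17.6 CPM in DHCA and 267 ± 74.5 CPM in sham libraries. The difference was 0.08 on the log2 scale, SE 0.19, and -0.05 without Sham 1. DNAJA4, a cytosolic member, averaged 57.1 ± 3.69 CPM in DHCA and 48.1 ± 8.69 CPM in sham libraries, a log2 fold change of 0.24, SE 0.15. The mitochondrial DNAJA3 averaged 49.6 ± 7.11 CPM in DHCA and 57.9 ± 9.02 CPM in sham libraries, a log2 fold change of -0.22, SE 0.15. None of the 4 was under an unadjusted p of 0.05 in edgeR.

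Among the 10 tested DNAJB genes, 8 fold changes were positive and 2 negative, with a median of 0.22, and DNAJB1 alone was under an unadjusted p of 0.05. DNAJB6, which blocks the growth of polyglutamine and amyloid fibres, had 78.2 ± 5.43 CPM in DHCA and 73.6 ± 6.83 CPM in sham libraries and a log2 fold change of 0.09, SE 0.13. DNAJB9, an ER co-chaperone of BiP that ER stress induces, ran through 29.3, 38.7 and 57.5 CPM in DHCA libraries and 12.8, 29.5 and 47.0 CPM in sham libraries. The groups overlapped, with Sham 1 lowest and DHCA 3 highest. The log2 difference was 0.44, SE 0.27 (edgeR unadjusted p = 0.125), and 0.18 without Sham 1 and Sham 5. DNAJB2, a neuronal protein that sorts clients to the proteasome, reached 414.5 CPM in Sham 1 and 252 CPM in Sham 5, against 91.8 to 219.6 CPM in the other 10 libraries. Its log2 fold change was -0.42, SE 0.32. It was -0.10 without Sham 1 (edgeR unadjusted p = 0.696) and 0.11 without Sham 1 and Sham 5.

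The DNAJC genes share little beyond the J domain, and of the 22 tested, 14 fold changes were positive and 8 negative, with a median of 0.12. DNAJC21, a factor in the making of the large ribosomal subunit (ENSSSCG00000016828, chromosome 16, 20523945 to 20551730), ran through 21.6, 26.9 and 31.5 CPM in DHCA libraries and 9.99, 17.2 and 27.8 CPM in sham libraries. All DHCA libraries lay above 5 of the 6 sham libraries, and Sham 6, at 27.8 CPM, lay among the DHCA values. Its log2 fold change was 0.56, SE 0.22 (edgeR unadjusted p = 0.0242, adjusted p = 0.519). Leaving out each library gave 0.46 to 0.76, and leaving out Sham 1, Sham 4 and Sham 5 gave 0.33 (unadjusted p = 0.141).

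DNAJC28 averaged 5.71 ± 0.811 CPM in DHCA and 7.45 ± 1.68 CPM in sham libraries, with a log2 fold change of -0.41, SE 0.20 (edgeR unadjusted p = 0.0576). Sham 1, at 4.65 CPM, was the lowest of the 12, and without it the value was -0.50 (unadjusted p = 0.0104, adjusted p = 0.36). DNAJC27, which joins a J domain to a small GTPase domain, had 0.31, SE 0.16, with an edgeR unadjusted p of 0.081. DNAJC1, an ER membrane protein that binds ribosomes, had -0.36, SE 0.20, with an unadjusted p of 0.086. DNAJC30, a mitochondrial protein, had 0.43, SE 0.30, at 2.76 ± 1.19 CPM in DHCA and 2.01 ± 0.192 CPM in sham libraries, and 0.22 without DHCA 6. DNAJC17, a splicing-related protein, had -0.36, SE 0.24, with 17.8 and 18.0 CPM in Sham 1 and Sham 5 and 7.63 to 11.8 CPM in the other 10 libraries. DNAJC14, an ER membrane protein, had -0.24, SE 0.17, and -0.11 without Sham 1. SARNP overlaps DNAJC14 on the same strand over 6982 bases, so its counts are uncertain.

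Neither synaptic DNAJC gene passed the edgeR test. DNAJC5, the cysteine string protein of synaptic vesicles, averaged 148 ± 41.4 CPM in DHCA and 164 ± 49.7 CPM in sham libraries, a log2 fold change of -0.15, SE 0.24. DNAJC6, the neuronal auxilin that recruits HSPA8 to clathrin coats, averaged 338 ± 72.3 CPM in DHCA and 363 ± 113 CPM in sham libraries, with -0.10, SE 0.21. Its highest value, 579 CPM, was that of Sham 4, the library with cortical markers, and without Sham 4 its log2 fold change was 0.07.

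Over the 8 genes taken as ER chaperones and ER co-chaperones (HSPA5, HSPA13, DNAJB9, DNAJB12, DNAJB14, DNAJC1, DNAJC3 and DNAJC10), 6 fold changes were positive and 2 negative, with a median of 0.23. None was under an unadjusted p of 0.05 in edgeR. DNAJC14 was not in this group. Some ER chaperones outside it were negative, at -0.11 for HSP90B1, -0.10 for DNAJB11, -0.32 for HYOU1, -0.26 for SIL1 and -0.97 for SERPINH1. DNAJB11, HYOU1 and SIL1 were picked after their values were seen, so this is no count of all ER chaperones. Of the 6 positive genes, DNAJB9, DNAJB14, DNAJC10 and HSPA13 had r of 0.82, 0.90, 0.84 and 0.83 with the share of mitochondrial counts, whose part in these differences was not tested. The ER lumen chaperone HSPA5 and the BiP partner DNAJB9 thus differed in sign, at -0.30 and 0.44, with intervals that both include 0. DNAJC3, an ER co-chaperone induced by ER stress, had 0.09, SE 0.19.

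Besides BAG3, the exchange factor BAG1 averaged 28.4 ± 1.79 CPM in DHCA and 23.5 ± 4.79 CPM in sham libraries, a log2 fold change of 0.26, SE 0.16 (edgeR unadjusted p = 0.125). BAG2, which holds back the ubiquitin ligase partner of HSP70, averaged 4.01 ± 0.828 CPM in DHCA and 5.21 ± 2.12 CPM in sham libraries, a log2 fold change of -0.38, SE 0.27. Sham 4 had 9.38 CPM of BAG2, against 3.73 to 5.33 CPM in the 5 remaining ones. Without that library the value was -0.10 (edgeR unadjusted p = 0.728). Among the 7 BAG and HSP-binding genes 5 fold changes were positive and 2 negative, with a median of 0.14.

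By level per length, 8 genes averaged over 100 TPM in both groups. In falling order over all libraries they were HSPA8, HSPA5, HSPH1, DNAJA1, DNAJC6, DNAJB2, HSPE1 and HSPA12A. HSPA5 averaged 219 ± 56.7 TPM in DHCA and 285 ± 54.6 TPM in sham libraries, and HSPH1 169.6 ± 17.8 TPM in DHCA and 173 ± 38.3 TPM in sham libraries. From DNAJA1 (141 ± 10.2 TPM in DHCA and 143 ± 34.6 TPM in sham libraries) to HSPA12A (109 ± 27.0 TPM in DHCA and 112 ± 18.4 TPM in sham libraries) neighbours differed by less than the larger of their SDs. Of all 66 genes, 19 averaged under 10 TPM in both groups, among them the 6 genes that were not tested.

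**Figure D4:**
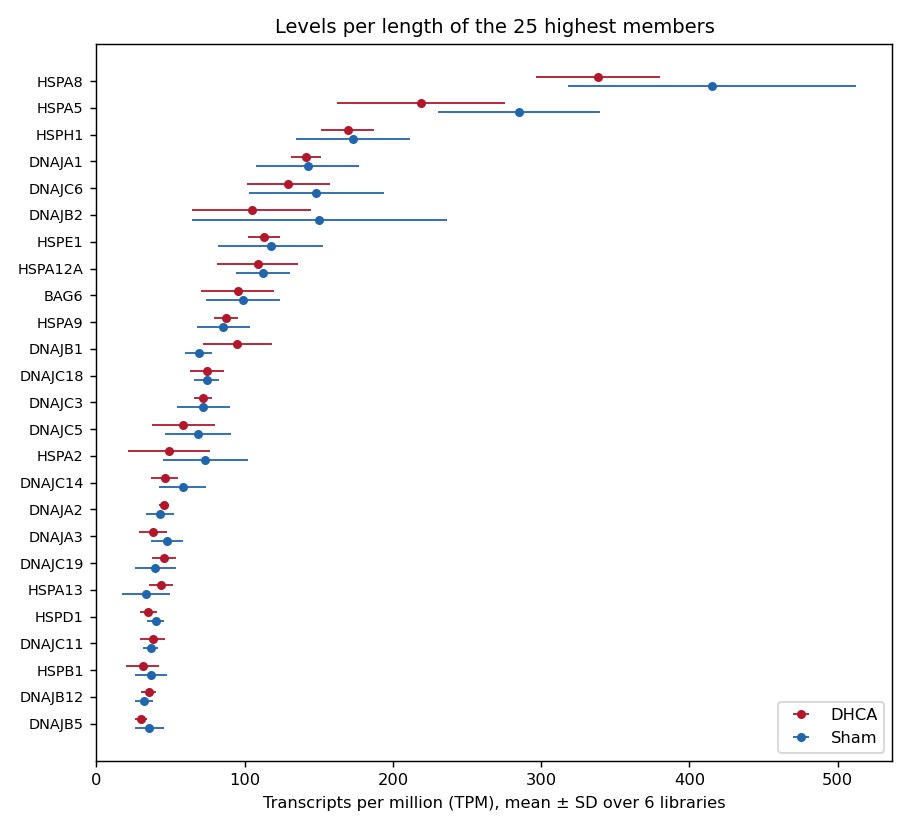
Level per length (TPM, mean ± SD over 6 libraries a group, red DHCA above blue sham) of the 25 highest of the 66 genes, ordered by the mean over all libraries. HSPA8 is highest at 338 TPM in DHCA and 415 TPM in sham libraries, and the bars of DHCA and sham overlap for nearly every gene.

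The 6 genes without enough counts to be tested were HSPA1L, HSPB3, HSPB7, DNAJB8, DNAJC5B and DNAJC22. The highest of their group means were 0.581 CPM (HSPA1L) in DHCA and 1.19 CPM (HSPA1L) in sham libraries. HSPA1L, HSPB3, HSPB7 and DNAJC22 were each highest in Sham 1, at 2.33 to 3.88 CPM, which is 6 to 10 counts there.

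Much of the spread over libraries was on the sham side. Sham 1 had the lowest of the 12 values in 28 of the 60 genes and the highest in 10. The sham libraries had the larger coefficient of variation in 50 of the 60 genes, with a median of 17.6% in DHCA and 29.4% in sham libraries. The same counts were not made over all tested genes, so they cannot be read as particular to the chaperone genes. With Sham 1 and Sham 5 left out, the median log2 fold change of the family was 0.01.

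The mitochondrial share of the counts went with many of these genes. Of 600 relations computed (60 genes by 10 measures), 8 had an adjusted permutation p under 0.05 for both r and rho, all with that share. The closest was HSPA4L, an HSP110 protein, with r = 0.92 and rho = 0.92 over 12 libraries (adjusted permutation p = 0.002 and 0.0165). Its r was 0.95 without DHCA 6 and Sham 1, 0.96 within the DHCA libraries and 0.97 within the sham libraries (exact permutation p = 0.00556 in each). The others with a positive r were DNAJB14 (0.90), BAG4 (0.87), DNAJA2 (0.86), DNAJC10 (0.84), HSPA13 (0.83) and DNAJA1 (0.81), and DNAJC14, whose counts are uncertain through its overlap with SARNP, had -0.88. On the opposite strand, HSPA4L overlaps MFSD8 over 8874 bases, DNAJA2 overlaps GPT2 over 44434 and DNAJA1 overlaps SMU1 over 10654. With no strand option set, these counts are uncertain too. Other genes described here also overlap a gene on the opposite strand and share that limit. Among them are HSPB6 (LIN37, 5389 bases), DNAJA4 (WDR61, 5384), DNAJC17 (C15orf62, 4251) and DNAJB5 (VCP, 2930). All overlaps given are of whole gene spans, introns included. An r of at least 0.8 in size was found in 21.7% of the 60 genes and in 18.5% of all tested genes, so the family was near the background in this. RNA quality values were not used here, and the part of the mitochondrial share in any single difference was not tested.

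**Figure D5:**
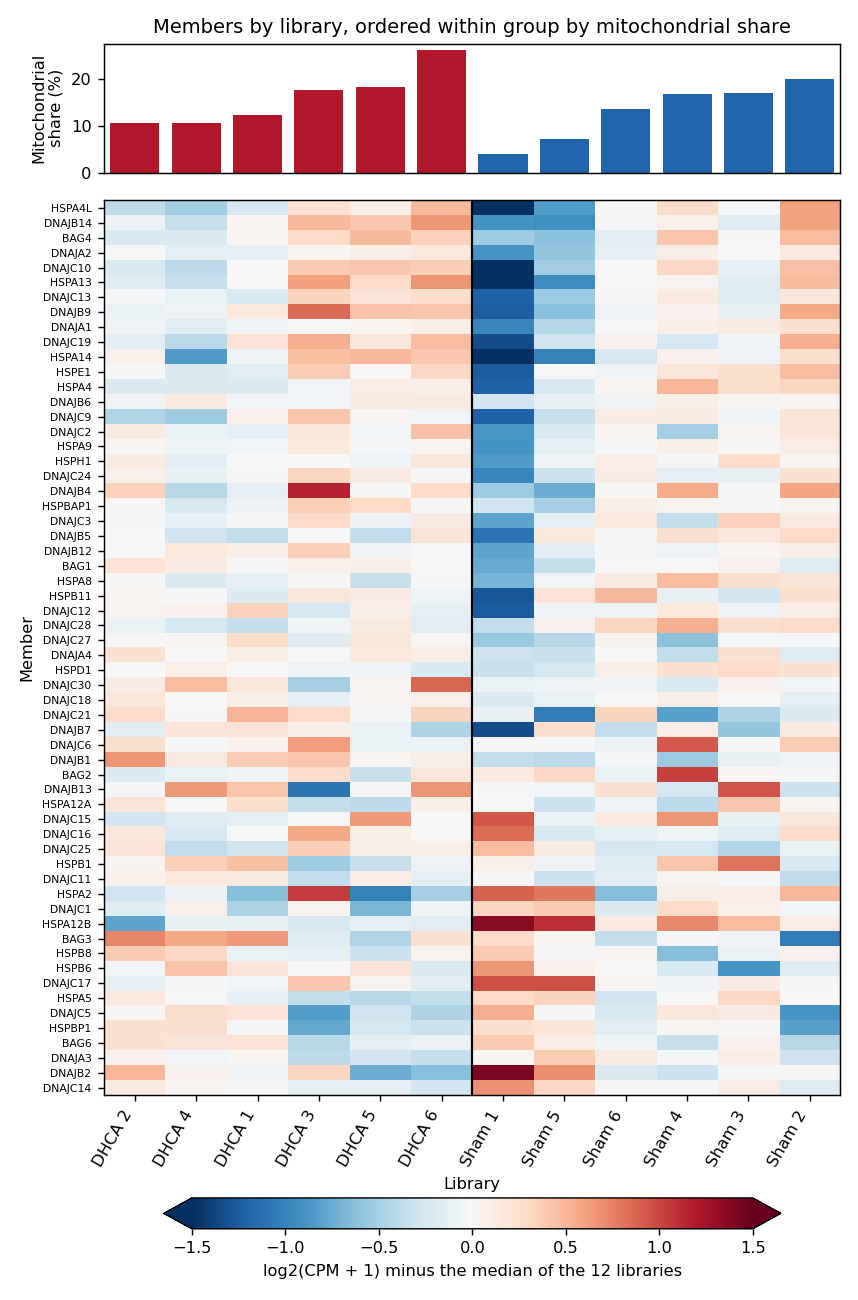
Each row is a tested gene and each column a library (6 DHCA left, 6 sham right, each ordered by mitochondrial share, drawn as bars in percent above), coloured by log2(CPM + 1) minus the gene's median over the 12 libraries. Rows run from the most positive to the most negative correlation with the mitochondrial share, and the Sham 1 column is blue for most genes at the top and red for several at the bottom.

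Partners of these chaperones outside the name pattern were counted from a list of 29 heat shock factors, HSP90 co-chaperones, chaperonin subunits and stress-induced chaperones, of which 25 were tested. None passed the edgeR test. At an edgeR unadjusted p of 0.05, 0 were higher and 2 lower in DHCA, against 3.43% and 4.47% of all tested genes. Fold changes were positive in 10 and negative in 15, with a median of -0.10. Over all tested genes 6935 were positive and 7069 negative, and the list was not tested as a set. SERPINH1 (HSP47), the ER chaperone of collagen and a gene that heat shock induces, ran through 22.7, 29.5 and 46.4 CPM in DHCA libraries and 38.9, 61.8 and 85.2 CPM in sham libraries. DHCA 4 alone among the DHCA libraries reached into the sham range. The highest SERPINH1 levels were those of Sham 5 (85.2 CPM) and Sham 1 (76.4 CPM), the shallow libraries with a low mitochondrial share. The fold change on the log2 scale was -0.97, SE 0.24 (edgeR unadjusted p = 0.00106, adjusted p = 0.159). AHSA1, which speeds the HSP90 ATPase, averaged 56.1 ± 9.31 CPM in DHCA and 74.7 ± 13.9 CPM in sham libraries, with -0.41, SE 0.17 (unadjusted p = 0.0319, adjusted p = 0.563). AHSA1 too was highest in Sham 5 (87.9 CPM) and Sham 1 (83.4 CPM). Fold changes without these libraries are not given for SERPINH1 or AHSA1. FKBP4, an HSP90 co-chaperone of steroid receptors, had -0.30, SE 0.15.

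Upward, the smallest unadjusted p was 0.313 (edgeR), for ST13, an HSP70-binding protein, with a log2 fold change of 0.21, SE 0.20. The factor HSF2 had 0.20, SE 0.29, and PTGES3, the HSP90 co-chaperone p23, had 0.15, SE 0.22. HSF1 itself averaged 5.64 ± 2.38 CPM in DHCA and 8.11 ± 5.94 CPM in sham libraries, with -0.42, SE 0.44, and the highest sham value, 19.0 CPM, was that of Sham 1. The activity of HSF1 is set on the protein, so its RNA level is no measure of it. CRYAB, a small heat shock protein rich in oligodendrocytes and astrocytes, averaged 35.4 ± 31.2 CPM in DHCA and 32.3 ± 16.8 CPM in sham libraries, with 0.15, SE 0.48. Its highest value, 96.2 CPM, was that of DHCA 3, the library with the highest oligodendrocyte markers. STUB1, the ubiquitin ligase that works with HSP70, is listed at 0 in all libraries. It lies on chromosome 3 and not on an unplaced scaffold. Why it had no counts was not examined, so its zeros are not read as a level.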

How the data were processed

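Raw counts per Ensembl gene were made by the authors with featureCounts 1.5.1 with an annotation of the Sscrofa11.1 build, per the file headers. No aligner is named in the sources used. Of its 18 library columns, 12 were matched to samples and 6 were not used. Per gene, the authors' deposited comparison table holds p-values, a test score, a log2 fold change and a mean signal of normalized counts. The score has the opposite sign to the fold change in all 21223 rows. Its fold changes were read as DHCA minus sham, since they had r = 0.967 with those computed here across 14004 genes. The submitters' processing notes name DESeq2.

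Counts were analysed in R 4.3.3 with edgeR 4.0.16 (filterByExpr by group, TMM, robust quasi-likelihood F test on all 12 libraries, Benjamini-Hochberg adjustment over 14004 genes, threshold 0.05). The fit was tested on simulated data. Fold changes are DHCA minus sham; CPM is after TMM, and TPM was computed from counts and the table's gene lengths. Alternatives were DESeq2 1.42.0 (Wald test, size factors), upper-quartile factors, limma 3.58.1 voom with quality weights per sample, other filters, a replicate block, leaving out libraries, leaving out mitochondrial genes, and a threshold of 0.1. Correlations used log2(CPM + 1) with 100000 permutations, or all permutations within a group of 6, with adjustment over 600 relations for r and for rho. Intervals are 95%. Limits for 0 counts are 3 counts per library and cover counting error only.

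The genes and the lists were chosen with earlier results of these data known. Genes named are the 8 tested per direction with the smallest p, those whose groups do not overlap, the 5 highest per length, and a fixed list of well-known chaperones; HSPB11, HSPA4L, HSPA12A, HSPA13, HSPA14, DNAJB2, DNAJC3, DNAJB11, HYOU1, SIL1 and the genes correlated with the mitochondrial share were added after their values were seen. The design text gives 6 animals a group, so p-values measure the spread between animals. Between any pair of libraries of the same group chi-square per degree of freedom was at least 8.50, so none looked like the same library. Protein and promoter sequences were not used here, and a planned count of promoter motifs was not run.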

Additional observations from a re-analysis of the deposited data

Results flagged for a closer look

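Dixon's test at 95% was run on both groups of 63 genes, the 60 tested chaperone genes with HSP90AB1, HSP90B1 and HSP70.2. In 11 of these 126 groups a library lay far from the other 5. Over groups without true outliers, chance alone gives such a case in about 5% of groups. HSPA12B was 7.20 CPM in DHCA 2 and 10.9 to 12.2 CPM in the other DHCA libraries. DNAJC17 was 11.8 CPM in DHCA 3 and 7.63 to 9.07 CPM in the other DHCA libraries. HSPA2 was 93.1 CPM in DHCA 3, the library with the highest oligodendrocyte markers, and 21.6 to 41.9 CPM in the other DHCA libraries. DNAJB4 was 52.2 CPM in DHCA 3 and 16.9 to 29.5 CPM in the other DHCA libraries. DNAJC15 was 25.1 CPM in DHCA 5 and 12.8 to 15.9 CPM in the other DHCA libraries. BAG2 was 9.38 CPM in Sham 4, the library with cortical markers, and 3.73 to 5.33 CPM in the other sham libraries. DNAJB13 was 6.20 CPM in Sham 3 and 2.00 to 3.44 CPM in the other sham libraries. Sham 1, the library with the lowest mitochondrial share, stood below the other sham libraries in 4 genes. HSPA9 was 72.9 CPM in Sham 1 and 123 to 147 CPM in the other sham libraries. DNAJB5 was 40.3 CPM there and 86.4 to 107.5 CPM in the others, DNAJB12 was 26.0 CPM there and 40.6 to 49.3 CPM in the others, and DNAJC12 was 3.49 CPM there and 9.15 to 10.9 CPM in the others.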

How the results depend on the processing

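No chaperone gene was called under any edgeR setting, with limma-voom or at an adjusted p of 0.1, and the DESeq2 Wald test called 2. Counts at an unadjusted p of 0.05 (2 higher, 1 lower) moved: 2 and 4 with DESeq2, 4 and 4 with limma-voom, 2 and 3 with no filter, 2 and 2 with upper-quartile factors, 3 and 5 without Sham 1 and Sham 5, and 2 and 3 without Sham 1, Sham 4 and Sham 5. The shares of all genes under that p at these settings are not given, so these counts have no background beside them. The 4 lower with DESeq2 include HSPB3 and DNAJC22 (DESeq2 unadjusted p = 0.02 and 0.0177). Both were too low to be tested in edgeR. Leaving out each library gave 0 called, 1 to 4 higher (fewest without DHCA 1 or Sham 4, most without Sham 2), 1 to 3 lower (most without DHCA 5 or Sham 1) and a median log2 fold change of 0.03 to 0.13. DNAJB1 and HSPA12B kept their direction in all settings run. Their DHCA and sham libraries do not overlap, so leaving out libraries could hardly reverse that direction. Keeping it is therefore no added support.

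Values of uncalled genes changed sign, here for the genes of the naming rule and the chaperone genes named beside it. With limma-voom, log2 fold changes were HSPH1 -0.10, HSPE1 -0.15, HSPB1 0.0047, DNAJA1 -0.0404, DNAJC5 0.10, DNAJC6 0.0189, HSPA4L -0.13 and DNAJC3 -0.15. Without Sham 1 and Sham 5 they were DNAJC17 0.0122, HSPA9 -0.0297, HSPH1 -0.0845, HSPE1 -0.16, DNAJA1 -0.15, DNAJC5 0.0167, HSPA4L -0.26, HSPA12A -0.0282, DNAJB2 0.11, DNAJC3 -0.0594, DNAJC10 -0.0457, DNAJA2 -0.032 and BAG4 -0.055. Without Sham 1, Sham 4 and Sham 5 they were BAG2 0.0048, HSPA9 -0.021, HSPH1 -0.13, HSPE1 -0.18, DNAJA1 -0.16, DNAJC5 0.14, DNAJC6 0.0332, HSPA4L -0.25, HSPA12A -0.15, DNAJB2 0.0431, DNAJC3 -0.19, DNAJC10 -0.0028 and DNAJA2 -0.0141. With upper-quartile factors HSPE1 was -0.0062 and HSPA12A -0.017. With the replicate block HSPB11 was 0.12. Leaving out each library gave -0.16 to 0.032 for HSP90AB1, -0.0531 to 0.14 for HSPH1, -0.13 to 0.15 for HSPE1, -0.29 to 0.0044 for HSPB1, -0.0353 to 0.17 for HSPB8, -0.0547 to 0.16 for DNAJA1, -0.0216 to 0.19 for DNAJC3, -0.0458 to 0.14 for HSPA12A, -0.10 to 0.27 for HSPA4L, -0.17 to 0.19 for HSPB11 and -0.24 to 0.0706 for DNAJC6. The causes were not tested.

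With the replicate block, 0 chaperone genes were called, 2 were higher and 1 lower at an unadjusted p of 0.05, with a median of 0.12. Deviations of same-numbered libraries had correlations of -0.39 to 0.34, and 1 of the 6 numbers correlated best with its own. Such correlations cannot show whether same-numbered animals shared more than a number. Depth limits the low genes most: in Sham 5, 0 counts allow 2.00 CPM.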
